A study of Mus musculus with 2 samples.

Results

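Slc38a4, Sfmbt2, Gab1, Jade1 and Smoc1 are mouse genes listed as having non-canonical imprinting, the kind that is based on a histone mark. These 5 genes, of 16579 named on the arrays, were chosen by name from a group known for this kind of imprinting, with their values on these arrays already known, and so the values below are a description without a test. Expression was measured in mouse embryonic fibroblasts (MEF, mesenchymal cells cultured from embryos) with Affymetrix Mouse Genome 430 2.0 arrays. The 2 samples were Lsh-/- MEF, which lack the chromatin remodeller Lsh, and Lsh+/+ MEF, their wild type counterpart, with 1 array per genotype. Both were cell lines grown in the same serum-supplemented medium. Strain, embryo age, sex, passage and the number of embryos behind each line are not stated in the sources read here. The study asked how cytosine methylation that depends on Lsh, at non-repetitive sequence, relates to gene expression. No array was repeated, so no spread could be estimated and no p-value is given, and genotype cannot be told apart from any other difference between the 2 cell lines or arrays.

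Most imprinted genes carry DNA methylation from the gametes on a single parental allele. In the non-canonical kind, Polycomb repressive complex 2 (PRC2) places the histone mark H3K27me3, a trimethylated lysine of histone H3, on the maternal allele in the oocyte, and the embryo before implantation expresses the paternal allele. This mark is later lost. In trophoblast and other extraembryonic lineages the maternal allele then becomes DNA methylated and the imprint persists, whereas in the embryo itself it mostly fades. Lsh, encoded by Hells, is a helicase of the SNF2 family that is needed for normal DNA methylation. The arrays summed both alleles, so allele-specific expression was not measured.

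Values are log2 expression from robust multi-array average (RMA) processing, for rows built per RefSeq transcript. Each gene was represented by the row that was brightest on average over the 2 arrays, and a difference is Lsh-/- minus Lsh+/+. The median of all rows, 3.88 on the Lsh-/- array and 3.86 on the Lsh+/+ array, served as a dimness limit. A gene was kept where at least 1 of its values reached the limit of its array, which held for 9169 genes and for all 5 described here. The limit says nothing about detection. A fold written "at least" sets the brighter value against the limit of the other array, because the dimmer value fell short of that limit. Probes differ in brightness, so values are compared between arrays for a gene and not between genes. Where a value is placed among other rows or genes below, its place is a description and nothing is read from it.

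Of the 5 genes, 3 were over 2-fold higher in Lsh-/- MEF by the measured difference and 2 lay within 2-fold. None was 2-fold lower. Among all kept genes, 4.65% passed 2-fold upward and 6.06% downward. Counts past 2-fold use the measured difference throughout, also where the dimmer value lay below the limit. Against the limit instead, Slc38a4 and Sfmbt2 passed 2-fold and Smoc1 did not. By that count 3.52% of all kept genes passed upward and 4.72% downward. Of the 5 differences 4 lay above 0, as did 50.5% of all kept genes. The 5 genes were picked with this contrast known, so nothing is read from these shares. The median difference was 1.06 over the 5 genes and 0.01 over all kept genes. The 5 were kept on the Lsh-/- array without exception, against 2 on the Lsh+/+ array, so that 3 of them passed the limit through their Lsh-/- value alone. In RNA from a whole culture, more expressing cells and more RNA per cell cannot be told apart.

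**Figure D1:**
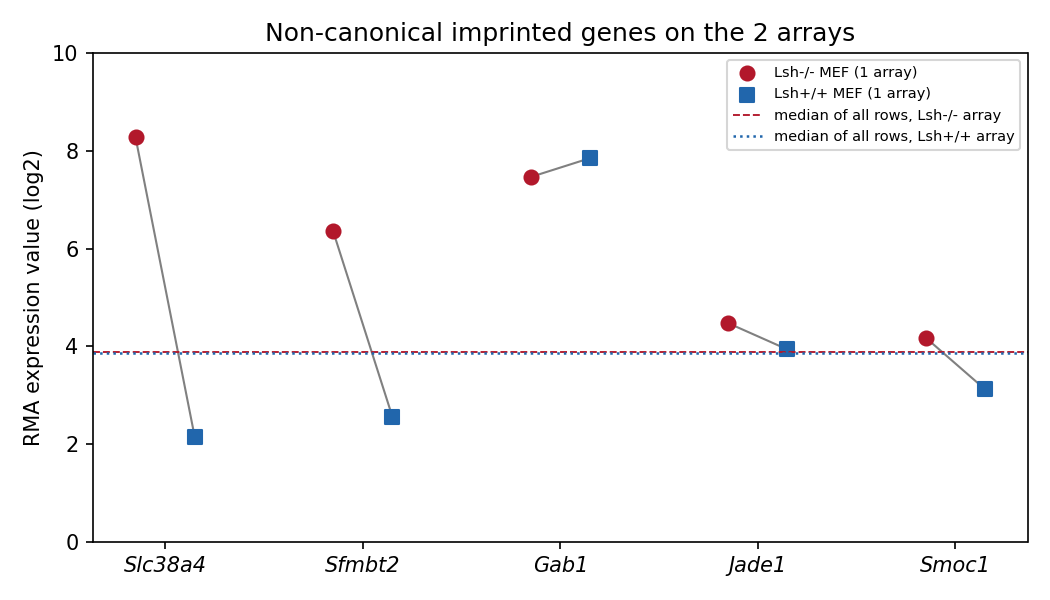
RMA expression (log2) of the 5 genes on the Lsh-/- array (circles) and the Lsh+/+ array (squares), with a line joining the 2 values of a gene and horizontal lines at the median of all rows on each array. Slc38a4, Sfmbt2 and Smoc1 lie above the median line on the Lsh-/- array only, while Gab1 and Jade1 lie above it on both.

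Slc38a4 encodes a sodium-coupled neutral amino acid transporter of system A, abundant in liver and placenta. Its only row (NM_027052) read 8.28 in Lsh-/- MEF and 2.14 in Lsh+/+ MEF. The Lsh+/+ value lay below the dimness limit, and 20.7% of all rows on that array were dimmer still. The Lsh-/- value was brighter than 96.2% of the rows on its own array. The difference was 6.14, or at least 21.4-fold over the limit. Among kept genes 1 had a higher difference, which placed Slc38a4 at rank 2 of 9169. Among the 478 kept genes whose Lsh+/+ value lay below the limit, 2 reached the Lsh-/- value of Slc38a4, itself counted. All 478 were kept through their Lsh-/- value alone, so nothing is read from this count. A pseudocount of 32 on the linear scale lowered the difference to 3.23.

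Sfmbt2 encodes a Polycomb group protein with malignant brain tumour (MBT) repeats and is required for trophoblast maintenance in the mouse. The row used (NM_001198808) read 6.36 in Lsh-/- MEF and 2.56 in Lsh+/+ MEF, which differ by 3.79, or at least 5.66-fold. Its Lsh-/- value was brighter than 81.7% of rows on that array. The gene stood at rank 26 of the kept genes by its difference. Among the 478 kept genes dim in Lsh+/+ MEF, so kept through Lsh-/- alone, 19 reached the Lsh-/- value of Sfmbt2, itself counted. Of its 3 rows, NM_177386 held the same pair of values as the row used. The other, NM_001198809, read 2.51 in Lsh-/- MEF and 1.68 in Lsh+/+ MEF, below the limit on both arrays, with a difference of 0.83. The size of the Sfmbt2 difference therefore depended on the row, although all 3 rows were higher in Lsh-/- MEF.

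Smoc1 encodes a secreted calcium-binding matricellular protein of the SPARC family that can antagonise bone morphogenetic protein (BMP) signalling, as shown in Xenopus. Both of its rows held the same values, 4.18 in Lsh-/- MEF and 3.12 in Lsh+/+ MEF. The difference of 1.06 was just past 2-fold. The Lsh+/+ value lay below the dimness limit, and over that limit the Lsh-/- value was at least 1.25-fold higher. The gene stood at rank 375 by its difference, with 4.08% of kept genes above it. Of the 478 kept genes dim in Lsh+/+ MEF, all kept through their Lsh-/- value alone, 213 had a lower Lsh-/- value than Smoc1. The difference was 0.62, under 2-fold, when the Lsh-/- array was scaled to the hybridisation controls described below.

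Jade1, formerly Phf17, encodes a PHD finger scaffold of histone acetyltransferase complexes built on HBO1. All 4 of its rows held 4.47 in Lsh-/- MEF and 3.94 in Lsh+/+ MEF. Both values lay a little above the dimness limit. The difference of 0.54, or 1.45-fold, was within 2-fold, and 15.5% of kept genes had a higher one.

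Gab1 encodes a docking adaptor that carries signals from receptor tyrosine kinases, among them Met, to the phosphatase Shp2 and to phosphoinositide 3-kinase. Its only row (NM_021356) was bright on both arrays, at 7.46 in Lsh-/- MEF and 7.85 in Lsh+/+ MEF. The difference was -0.39, which made Gab1 the only member below 0. The Lsh-/- value was 1.31-fold lower, and 77.6% of kept genes had a higher difference. By difference the members ran in the order Slc38a4, Sfmbt2, Smoc1, Jade1 and Gab1. With no repeated array, whether neighbours in this order differ beyond array error was not tested.

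**Figure D2:**
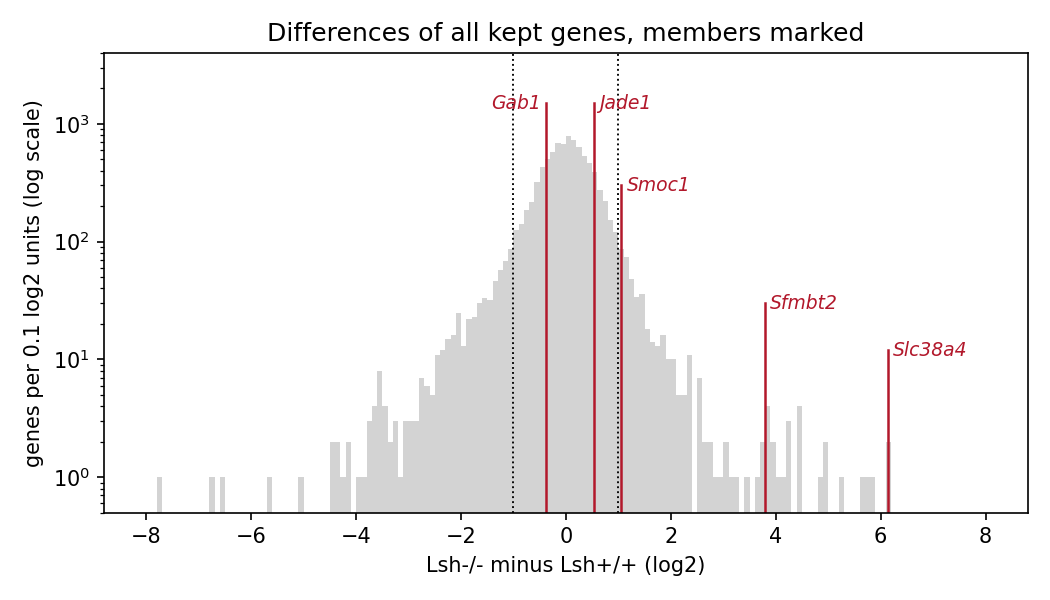
Histogram of the difference, Lsh-/- minus Lsh+/+ (log2), over the 9169 kept genes, with the count on a log axis, the 5 genes marked by vertical lines and 2-fold by dotted lines. Slc38a4 at 6.14 and Sfmbt2 at 3.79 lie in the sparse upper tail, Smoc1 at 1.06 just past 2-fold, and Jade1 and Gab1 inside the central peak, whose quartiles were -0.34 and 0.35.

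Promoter sequence is shown for Slc38a4 and Sfmbt2, the members with the largest differences, and for Gab1, the member below 0, because Lsh acts on DNA methylation, which in mammals falls mainly on the dinucleotide CG. RefSeq promoter windows on build GRCm38.p6 span 250 bases before to 50 bases after an annotated start. Such windows were matched for 4 of the 5 genes, 11 windows in all, and Smoc1 was unmatched. Which of a gene's starts gave the signal on the arrays was not measured. The windows below run 5′ to 3′ on the strand of the gene, with every CG in capitals. The Slc38a4 window is chr15:97055907-97056206 on the minus strand, and the Sfmbt2 windows are chr2:10370201-10370500 and chr2:10372186-10372485 on the plus strand. The Gab1 window is chr8:80880430-80880729 on the minus strand.
Slc38a4: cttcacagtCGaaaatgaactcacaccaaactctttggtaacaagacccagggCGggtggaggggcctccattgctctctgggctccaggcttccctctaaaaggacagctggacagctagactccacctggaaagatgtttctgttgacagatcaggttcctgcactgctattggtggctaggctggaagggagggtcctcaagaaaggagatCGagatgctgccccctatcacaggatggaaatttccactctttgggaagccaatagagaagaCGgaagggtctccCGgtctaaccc
Sfmbt2, first start: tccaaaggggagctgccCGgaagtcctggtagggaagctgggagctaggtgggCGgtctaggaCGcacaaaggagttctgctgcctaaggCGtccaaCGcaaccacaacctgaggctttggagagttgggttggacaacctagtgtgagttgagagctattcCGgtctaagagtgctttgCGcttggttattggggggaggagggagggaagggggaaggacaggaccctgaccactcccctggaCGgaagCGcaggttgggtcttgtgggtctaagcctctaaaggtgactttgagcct
Sfmbt2, second start: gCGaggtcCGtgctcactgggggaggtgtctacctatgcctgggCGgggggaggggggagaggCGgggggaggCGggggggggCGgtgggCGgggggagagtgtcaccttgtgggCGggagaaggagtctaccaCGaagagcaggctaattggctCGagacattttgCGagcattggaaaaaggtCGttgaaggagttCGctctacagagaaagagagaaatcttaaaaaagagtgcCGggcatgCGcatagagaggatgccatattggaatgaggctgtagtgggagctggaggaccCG
Gab1: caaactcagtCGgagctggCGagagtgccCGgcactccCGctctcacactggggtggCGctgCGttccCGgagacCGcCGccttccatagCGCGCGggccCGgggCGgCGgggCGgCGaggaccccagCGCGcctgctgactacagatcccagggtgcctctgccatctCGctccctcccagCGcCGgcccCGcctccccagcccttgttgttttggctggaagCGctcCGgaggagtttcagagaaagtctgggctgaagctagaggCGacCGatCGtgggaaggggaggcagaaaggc

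The Slc38a4 window held 5 CG, and its 2 other annotated windows also held 5 each. The motif CG reads the same on both strands. At least 1 CG was present in 94.6% of all 32851 windows of 300 bases in the table, whose median was 7, and 62.0% of windows held at least 5. The Sfmbt2 windows held 9 and 16 CG, numbers that 45.8% and 33.0% of windows reached. Gab1 had 2 overlapping windows with 26 and 28 CG, reached by 16.9% and 14.2% of windows. The 4 Jade1 windows held 18, 14, 38 and 25 CG. Every Slc38a4 window thus lay below the median of all windows, and every Sfmbt2, Jade1 and Gab1 window above it. The observed over expected ratio of CG was 0.24 to 0.33 in the Slc38a4 windows, 0.39 and 0.75 in those of Sfmbt2, 0.44 to 1.21 in those of Jade1 and 0.75 and 0.78 in those of Gab1. These counts describe the reference sequence, and methylation of these windows was not measured on the arrays.

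The genes beside each member on its chromosome were read next. For each member up to 3 measured genes on either side were taken in the order of the GRCm38.p6 gene table. Of these, 29 are reported and 16 were kept. Of the 16, none was 2-fold higher, 2 were over 2-fold lower and 14 lay within 2-fold, with a median of -0.06. Among all kept genes the shares were 4.65% higher and 6.06% lower, so nothing is read from these counts in so few genes. Another 13 were dim on both arrays, and 4 of the 29 showed identical values in both genotypes, as did 1105 rows of the whole table.

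Slc38a4 lies next to 2 transporters of its own family on chromosome 15. Slc38a2, its neighbour and a broadly expressed system A transporter, read 8.74 in Lsh-/- MEF and 8.79 in Lsh+/+ MEF. Slc38a1, the following gene and also a system A transporter, read 6.91 in Lsh-/- MEF and 7.19 in Lsh+/+ MEF. The paralogues beside Slc38a4 were therefore bright on both arrays, and their differences, -0.05 and -0.29, lay within 2-fold. On the same side Scaf11 differed by -0.16. On the other side the adhesion molecule Amigo2 differed by 0.79, Pced1b by 0.67 and Rpap3 by -0.48.

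The genes around Sfmbt2 on chromosome 2 were dim or within 2-fold, apart from Pfkfb3. Pfkfb3, a regulator of glycolysis, read 4.10 in Lsh-/- MEF and 5.33 in Lsh+/+ MEF, 2.35-fold lower. Kin differed by 0.13 and Rbm17 by -0.06. Itih2, Itih5 and Prkcq, including both immediate neighbours of Sfmbt2, lay below the limit on both arrays.

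Around Gab1 on chromosome 8, Smarca5, which encodes the remodelling ATPase SNF2H, differed by 0.45 and Usp38 by 0.58. The cytokine gene Il15 read 2.66 in Lsh-/- MEF and 6.26 in Lsh+/+ MEF, at least 5.20-fold lower over the limit. Hhip and Inpp4b lay below the limit on both arrays. Around Jade1 on chromosome 3, Larp1b differed by -0.90, Pgrmc2 by -0.17 and Sclt1 by 0.11, and 1700034I23Rik, D3Ertd751e and Pcdh10 were dim on both. Around Smoc1 on chromosome 12 only Susd6 was kept, with a difference of 0.23. Slc10a1, 1700052I22Rik, Slc8a3, Cox16 and Gm4787 lay below the limit on both arrays.

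**Figure D3:**
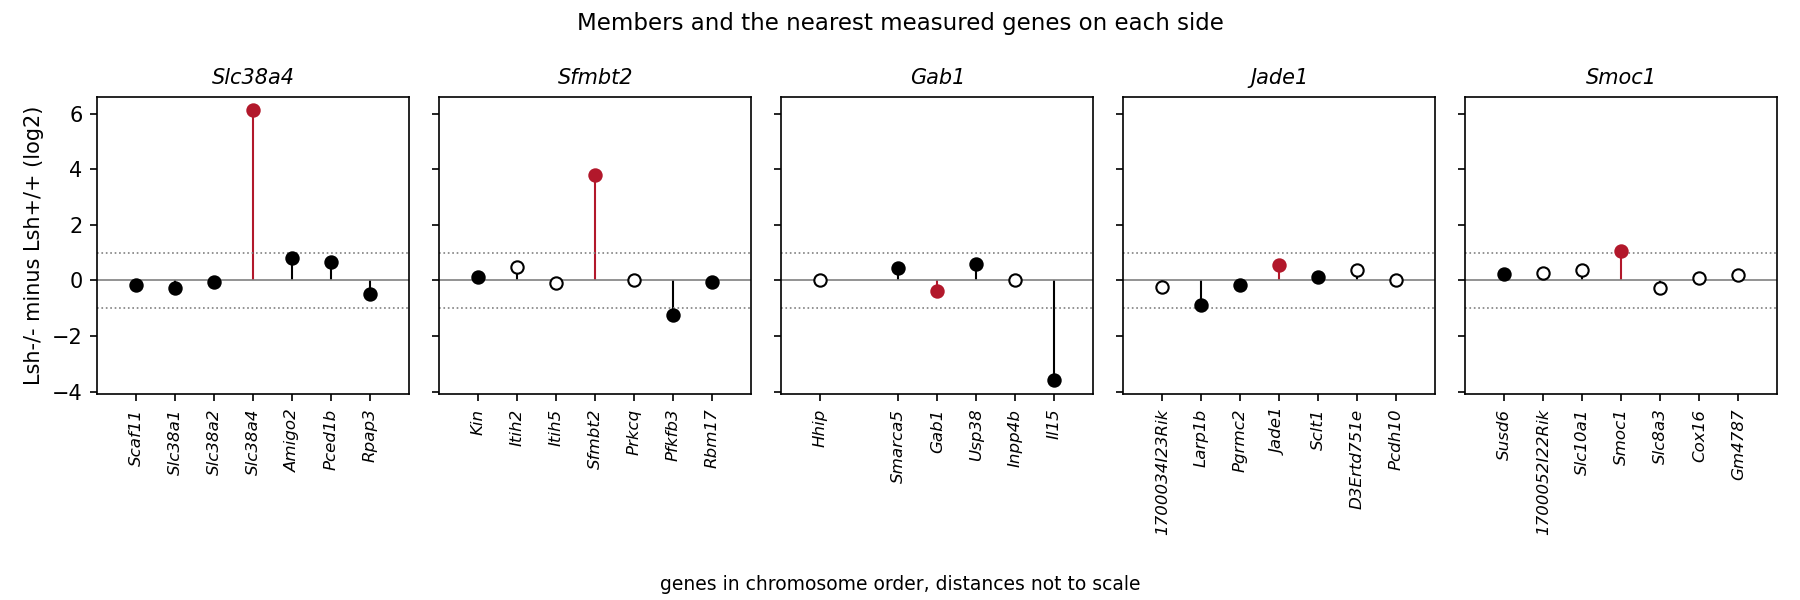
Difference, Lsh-/- minus Lsh+/+ (log2), of each of the 5 genes (red) and of up to 3 measured genes on either side in chromosome order (black), 1 panel per locus, with open circles for genes dim on both arrays and dotted lines at 2-fold. Slc38a4 (6.14) and Sfmbt2 (3.79) stand above neighbours that lie between -1.23 and 0.79, and Il15 near Gab1 is the lowest point at -3.60.

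The relatives of each member were then read from the same arrays. In the SLC38 family of amino acid transporters, 7 genes besides Slc38a4 were measured and 4 kept, and all 4 lay within 2-fold. Beside Slc38a1 and Slc38a2, the lysosomal transporter Slc38a7 differed by 0.07 and Slc38a10 by -0.14. Slc38a3, Slc38a5 and Slc38a9 lay below the limit on both arrays. Slc38a6, Slc38a8 and Slc38a11 were not matched to a row here. Among 11 kept amino acid transporters of other families, none was 2-fold higher and 2 were over 2-fold lower by the measured difference, of which 1 was over 2-fold lower against the limit. Slc1a5, a glutamine transporter, read 4.39 in Lsh-/- MEF and 6.46 in Lsh+/+ MEF, a difference of -2.07. Slc1a3, a glutamate transporter, read 2.05 in Lsh-/- MEF and 4.42 in Lsh+/+ MEF, at least 1.45-fold lower over the limit. Over all kept genes 4.65% were 2-fold higher and 6.06% lower. Nothing is read about Slc38a4 from these counts in so few transporters.

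Of the other MBT domain genes, 6 were measured and 3 kept, and none passed 2-fold in either direction. Over all kept genes 4.65% were 2-fold higher and 6.06% lower, so nothing is read from 3 genes. L3mbtl2, part of a variant Polycomb complex, differed by 0.72, Mbtd1 by 0.54 and the Polycomb protein Scmh1 by -0.44. The paralogue Sfmbt1 read 3.77 in Lsh-/- MEF and 3.35 in Lsh+/+ MEF, below the limit on both, as did L3mbtl3 and Scml4.

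In the SPARC family, the paralogues Smoc1 and Smoc2 went in opposite directions. Smoc2 read 2.29 in Lsh-/- MEF and 4.88 in Lsh+/+ MEF, a difference of -2.59, or at least 1.995-fold lower. Smoc1 was dim in Lsh+/+ MEF and Smoc2 was dim in Lsh-/- MEF. Sparc, the abundant founder of the family, read 11.6 in Lsh-/- MEF and 11.8 in Lsh+/+ MEF, and Fstl1 10.8 on both. Sparcl1, Spock1, Spock2 and Spock3 lay below the limit on both arrays. Of 17 kept genes of BMP signalling, none was 2-fold higher and 3 were over 2-fold lower. These were the antagonist Grem1, at least 2.98-fold lower over the limit, and the ligands Bmp4 and Bmp2, with differences of -1.14 and -1.09. The median of the 17 was -0.03. Among all kept genes, 4.65% were 2-fold higher and 6.06% lower.

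The kept JADE and HBO1 genes lay within 2-fold, as Jade1 did. Of 8 measured relatives 7 were kept. With 4.65% of all kept genes 2-fold higher and 6.06% lower, nothing is read from these 7 lying within 2-fold. Of the 7 differences 6 lay above 0, as did 50.5% of all kept genes, and the list median was 0.23. Once scaled to the hybridisation controls, 2 of the 7 lay above 0, with a median of -0.20. The paralogue Jade2 read 4.46 in Lsh-/- MEF and 3.62 in Lsh+/+ MEF, which differ by 0.84, or at least 1.52-fold. Brpf1, a scaffold of related acetyltransferase complexes, differed by 0.63, Meaf6 by 0.34, Ing4 and Brpf3 by 0.23 each, the catalytic subunit Kat7 by 0.16 and Brd1 by -0.01. Ing5 was dim on both arrays and Jade3 was not matched to a row here.

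Of 10 kept partners and paralogues of Gab1, none was 2-fold higher and 2 were over 2-fold lower, or 4 when scaled to the hybridisation controls. The first 2 were the receptor kinases Pdgfra and Pdgfrb, with differences of -1.19 and -1.15, which are also mesenchymal markers. The median of the 10 was -0.31, and Gab1 itself, at -0.39, lay near it. Among all kept genes 4.65% were 2-fold higher and 6.06% lower as deposited. After scaling, 168 of the 9169 were higher and 1349 lower.

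**Figure D4:**
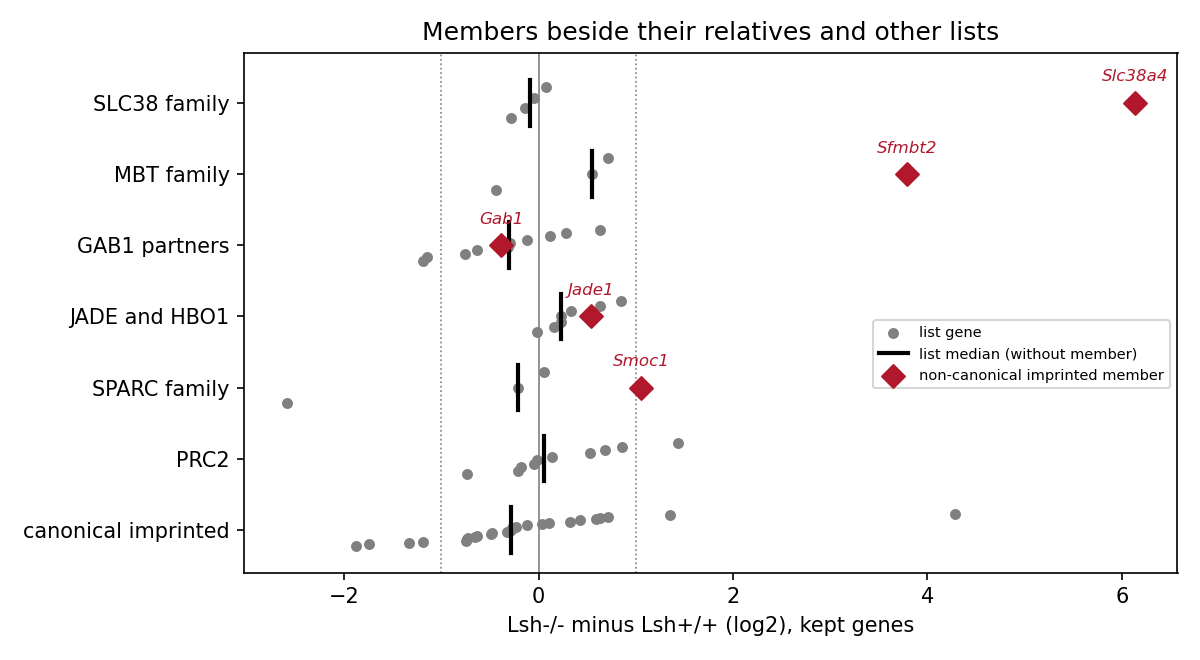
Difference, Lsh-/- minus Lsh+/+ (log2), of kept genes in each list (grey points), the list median without the member (black bar), and the member that belongs to it (red diamond), with dotted lines at 2-fold. Slc38a4 and Sfmbt2 lie to the right of all kept relatives, Smoc1 lies opposite to Smoc2 at -2.59, and Gab1 and Jade1 lie among theirs.

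The enzymes behind the H3K27me3 mark mostly lay within 2-fold between the arrays. Of 10 kept PRC2 genes 9 lay within 2-fold, with a median of 0.06. Ezh2, the main H3K27 methyltransferase, was the exception, at 7.99 in Lsh-/- MEF and 6.56 in Lsh+/+ MEF. Its difference of 1.43 became 0.99, just under 2-fold, after scaling to the hybridisation controls. The demethylases Kdm6a and Kdm6b differed by 0.50 and -0.26. Of 8 kept genes of DNA methylation, Hells was over 2-fold lower and 7 lay within 2-fold. The shares over all kept genes were 4.65% higher and 6.06% lower.

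Xist, the RNA that silences an X chromosome, is imprinted in the same maternal H3K27me3 fashion before implantation. It read 7.82 in Lsh-/- MEF and 7.52 in Lsh+/+ MEF, a difference of 0.30, or -0.14 once scaled to the hybridisation controls. The extraembryonic transcripts Platr4, Platr20 and Gm32885 were not matched to a row here. Imprinted genes of domains under germline DNA methylation moved in both directions. Of 47 measured 26 were kept, and of these 2 were over 2-fold higher, 4 over 2-fold lower and 20 within 2-fold, with a median of -0.29. Over all kept genes the shares as deposited were 4.65% higher and 6.06% lower. Scaled to the hybridisation controls, 1 of the 26 was over 2-fold higher and 9 were lower, with a median of -0.72. The same scaling left 168 of all 9169 kept genes higher and 1349 lower, with a median of -0.43. Ndn and Ppp1r9a were higher as deposited, by 4.29 and 1.36, and Ppp1r9a fell within 2-fold (0.92) when scaled. Grb10, Igf2, Igf2r and Rian were lower, with differences of -1.87, -1.75, -1.34 and -1.19. Whether the 2 kinds of imprinted gene differ was not tested.

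Because non-canonical imprints as a class persist in extraembryonic lineages, markers of those cells were read beside the 5 genes. Whether this holds for each of the 5 was not measured. Of 16 measured trophoblast and placenta markers, 5 lay above the dimness limit on the Lsh-/- array and 5 on the Lsh+/+ array. The summed linear level of the list was 896 in Lsh-/- MEF and 626 in Lsh+/+ MEF, a sum that follows its brightest probes. Without Krt18, left out after its values were seen, it was 412 in Lsh-/- MEF and 620 in Lsh+/+ MEF, so its direction rested on that gene. The trophoblast regulators Cdx2, Eomes, Elf5, Tfap2c, Hand1 and Gcm1 lay below the limit on both arrays, between 1.66 and 2.80, and so did the placental genes Tpbpa, Prl3d1 and Prl3b1. Krt18, a keratin of simple epithelia that trophoblast shares, read 8.92 in Lsh-/- MEF and 2.77 in Lsh+/+ MEF. Plac1, a placental gene, went the other way, with a difference of -1.89. The regulator Gata2 was above the limit on both arrays, at 5.89 in Lsh-/- MEF and 5.93 in Lsh+/+ MEF, and Gata3 only on the Lsh+/+ array, at 3.41 in Lsh-/- MEF and 3.98 in Lsh+/+ MEF. The keratins Krt7 and Krt8 were above it on both.

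Other marker lists were mostly dim. Of 13 measured markers of extraembryonic endoderm, 4 were above the limit on each array, with a summed level of 554 in Lsh-/- MEF and 712 in Lsh+/+ MEF. Of these, Gata4 and Dab2 were over 2-fold lower, by -1.10 and -1.06. Over all kept genes 4.65% were 2-fold higher and 6.06% lower, and nothing is read from the few kept markers of each list here. Of 9 hepatocyte markers, a cell type in which Slc38a4 is abundant, only Trf was above the limit, with a difference of -0.15, and Alb, Apob and Fgb were dim on both arrays. Among epithelial markers 2 of 10 were above the limit, and Krt19 was higher by 3.05. Of the pluripotency markers only Dppa5a was kept, with a difference of 0.33, and of the blood and endothelial markers only the receptor Kdr, at 1.82. Krt18 and Krt19 were thus higher in Lsh-/- MEF, as Slc38a4 and Sfmbt2 were, while the keratins Krt7, Krt8 and Krt14 lay within 2-fold, with differences of -0.35, 0.24 and 0.46. The part of these markers in the result was not tested.

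Most markers of the labelled cell type were above the dimness limit. Of 14 fibroblast markers, 11 were above the limit in Lsh-/- MEF and 13 in Lsh+/+ MEF, with Col1a1, Vim, Fn1 and Dcn bright on both, while Thy1 was dim on both. None was 2-fold higher and 6 of 13 kept were over 2-fold lower, led by Col1a2 (-4.43), S100a4 (-3.99), Postn (-3.74) and Lum (-3.63). Among all kept genes 4.65% were higher and 6.06% lower. The list's summed level was 12704 in Lsh-/- MEF and 18585 in Lsh+/+ MEF. Hells, the targeted gene, read 5.22 in Lsh-/- MEF and 6.68 in Lsh+/+ MEF, and the sources used here do not say whether its probes lie in the deleted part. The 9 hybridisation controls, RNA added in a fixed amount, were higher on the Lsh-/- array by a median of 0.44. Scaling to them lowers every difference by that amount, so each direction given here is relative to the other genes on the arrays. RNA integrity was read from the 3′ to 5′ gap of control probe sets (log2), in which the 3′ sets were brighter on both arrays. The Actb gap was 3.15 in Lsh-/- MEF and 2.56 in Lsh+/+ MEF, and the Gapdh gap 2.84 and 2.14. Both gaps were thus wider in Lsh-/- MEF, by 0.60 and 0.70. For 18S the gap was narrower (-0.59), at 1.52 in Lsh-/- MEF and 2.11 in Lsh+/+ MEF. The part of these features in the differences of the 5 genes was not tested.

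**Figure D5:**
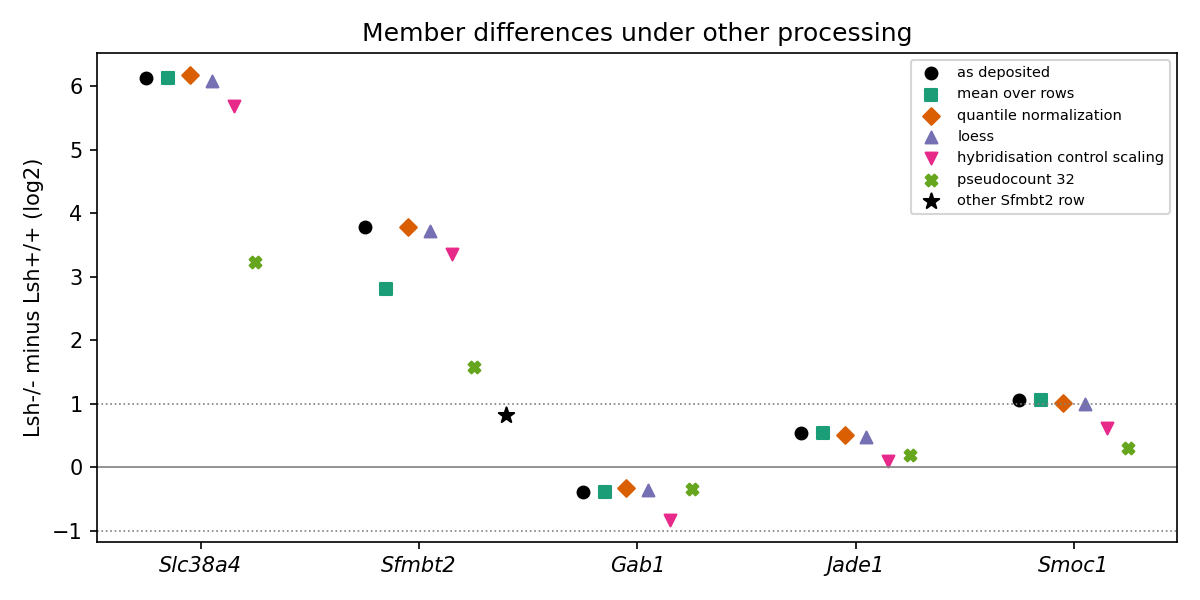
Difference, Lsh-/- minus Lsh+/+ (log2), of each of the 5 genes with the values as deposited and under 5 other settings (symbols), and the separate Sfmbt2 row (star), with dotted lines at 2-fold. Slc38a4 stays at 3.23 or above in each setting, Sfmbt2 ranges from 0.83 to 3.79, Smoc1 from 0.30 to 1.06, Jade1 from 0.10 to 0.54 and Gab1 from -0.82 to -0.32.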

How the data were processed

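Expression came as 1 table deposited by the authors, with 1 column of log2 values per array, made with RMA per the submitters' processing notes. The genome build, the grouping of probes and the version and settings of RMA are not stated in the labels. The log2 scale was inferred from the range of the deposited values, 0.89 to 13.1. Of 23950 rows, 64 were Affymetrix controls and 23886 carried RefSeq accessions. Stripped of suffix and version, 21230 of these matched exactly 1 gene of the GRCm38.p6 table each. The other 2656 matched none or more than 1 and were left out. Gene coordinates of that table were used for order only.

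The members and gene lists were chosen with earlier results of these data known. The text names the 5 members, their measured relatives and neighbours, Hells, Ezh2, Xist, and up to 4 members of each other list in either direction past 2-fold, or the kept member farthest from 0. Of the genes this names, 2 are not reported. Dim markers, Gata2, Gata3, the keratins within 2-fold and the bright fibroblast genes were named after their values were seen. No test was possible with 1 array per genotype, so that number limits the precision. The counting step was run on simulated differences set far past 2-fold, which checks the code and says nothing about the precision of the counts. Alternatives were other row choices, limits, thresholds of 1.5-fold and 3-fold, quantile normalization, loess (span 0.3), a pseudocount of 32 and scaling to the hybridisation controls. Protein sequences were not used here. Scripts ran in Python 3.11.15 with statsmodels 0.14.6, pandas 2.3.3, numpy 2.4.6 and matplotlib 3.10.9.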

Additional observations from a re-analysis of the deposited data

How the results depend on the processing

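No paired analysis was possible because the series holds a single array per genotype, which also leaves no replicate to omit. The pseudocount of 32 on the linear scale lowered the differences of Slc38a4, Sfmbt2 and Smoc1 to 3.23, 1.59 and 0.30. For Sfmbt2 the mean over rows gave 2.80, and the separate row gave 0.83. No member changed sign under any alternative run. With the limit at the upper quartile Jade1 and Smoc1 were not kept. Of the 5 members, 2 in place of 3 were over 2-fold higher with that limit, with loess, with the pseudocount, after scaling, with the other Sfmbt2 row or at 3-fold. Smoc1 (0.997 with loess, 0.62 after scaling) made the difference in each of these, except that Sfmbt2 did with its other row. Over all kept genes the 426 higher and 556 lower became 225 and 314 with an upper quartile limit, 101 and 193 under the pseudocount, and 168 and 1349 after scaling to the hybridisation controls. At 1.5-fold they were 1254 and 1267, and at 3-fold 131 and 240. The share of higher genes among those counted, 43.4%, was 34.4% with the pseudocount and 11.1% after scaling, which shifted the median difference to -0.43. With folds taken over the limit, a setting added after seeing the data, 2 members and 323 of all kept genes were higher and 433 lower. Fewer genes pass a stricter limit or threshold by construction. For the rest, the cause was not tested.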

Other observations

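The genes whose pair of values lay nearest to that of a member were found by Euclidean distance over the 2 arrays, on the log2 scale. Nearest to Slc38a4 were Cox7b2, Prxl2a and Rpl39l, which read 7.88, 7.63 and 7.64 in Lsh-/- MEF, against 2.04, 2.01 and 1.94 in Lsh+/+ MEF. Cox7b2 and Rpl39l are paralogues of housekeeping genes with expression mainly in testis. Near to Sfmbt2 were the germ cell gene Tex101 and 1700018B24Rik, at 6.13 and 6.32 in Lsh-/- MEF, against 2.44 and 2.22 in Lsh+/+ MEF. Nearest to Smoc1 were Cdc14a, the matrix protein Fbln7 and 0610010F05Rik, at 4.19, 4.16 and 4.24 in Lsh-/- MEF, against 3.10, 3.18 and 3.06 in Lsh+/+ MEF. Distances were 0.41 to 0.67 for Slc38a4, 0.26 and 0.34 for Sfmbt2 and 0.03 to 0.09 for Smoc1. A likeness over 2 arrays says only that the values are close.

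Kept genes with a matched promoter window, so without Smoc1, were also grouped by the largest number of CG in their windows. This division was chosen after seeing the data. Kept genes without a window are in none of the groups, so the shares do not cover all 9169. Of 2502 genes with at most 18 CG, which include Slc38a4 and Sfmbt2, 5.84% were over 2-fold higher in Lsh-/- MEF and 8.31% over 2-fold lower. Of 2258 genes with 29 CG or more, which include Jade1, 3.28% were higher and 4.43% lower. Gab1 fell among the 2620 genes between these, of which 3.70% were higher and 4.58% lower. Dim genes were more frequent in the first group, where 8.47% had an Lsh+/+ value below the limit, against 2.88% in the group with most CG. The part of dimness in these shares was not tested.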
